A study of Homo sapiens with 16 samples.

Results

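The 10 genes described here encode 7 tubulin isotypes and 3 proteins that act on microtubules. They are the alpha tubulins TUBA1A and TUBA4A, the beta tubulins TUBB2A, TUBB2B, TUBB3, TUBB4B and TUBB6, and the regulators STMN1, TPPP and MAP1B. They were taken as a named list, matched by symbol to the 54127 Ensembl genes counted in each library, and all 10 were found. They were chosen by what earlier results of these same libraries showed of their levels and drug responses, with no threshold, so their differences between groups are given as a description, and no p-value is printed for a member.

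RNA sequencing was performed on the established colorectal cancer lines HT55 and SW948 in adherent culture. The study asked how itraconazole, a triazole antifungal, acts on such cells. Each line was given itraconazole at 5 µM or its solvent DMSO for 6 days. This gave 4 groups, a treated and a DMSO group of each line, with 4 libraries in each. The methods of the study call its 4 replicates biological, while the labels give no more than a replicate number for each library.

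Microtubules are hollow polymers of alpha and beta tubulin dimers that grow and shrink from their ends, carry cargo in interphase and build the mitotic spindle. Vertebrates have several alpha and beta genes whose proteins, the isotypes, are nearly alike over most of their length and differ mainly at their acidic tails. STMN1 binds free tubulin and promotes disassembly, TPPP bundles and stabilises polymers, and MAP1B binds along the lattice, mainly in growing axons. Colon epithelium uses a few broadly expressed isotypes, whereas TUBB3, TUBB2B, TUBA1A and MAP1B are best known from neurons.

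Gene counts per library ran from 8269406 to 11110814. Levels are given as CPM, the count per 1000000 gene counts after TMM scaling over the 16 libraries, and as CPM per kilobase of the canonical transcript wherever different genes are compared. All 10 epithelial markers examined, EPCAM, KRT8 and VIL1 among them, were present in every group, with the lowest group mean at 35.8 CPM for CDX1. Of 12 neural markers, SOX10 and CHGA had no count in any library, and others were expressed. In HT55 the sum of the 12 was 144 to 167 CPM with DMSO and 179 to 219 CPM with itraconazole. Most of it was MBP and REST. In SW948 the sum was 169 to 181 CPM and 193 to 208 CPM. Of the 12, 3 were tested in HT55 and 5 in SW948. Of 8 mesenchymal markers, COL3A1 and THY1 had no count in any library and VIM had 0 to 4 counts. The sum of the 8 was 1.51 to 2.25 CPM with DMSO and 3.52 to 4.22 CPM with itraconazole in HT55, and 6 to 8.6 CPM and 31.8 to 45.8 CPM in SW948. PDGFRB was the 1 tested in HT55 and was higher (log2 1.25 ± 0.26). COL1A1 and FN1 were the 2 tested in SW948 and were higher (1.65 ± 0.18 and 2.88 ± 0.18), and FN1 made up most of the sum in treated SW948. Over all genes tested, edgeR at an adjusted p under 0.05 called 54.0% in HT55 (27.5% higher) and 80.2% in SW948 (38.9% higher). A scarce gene can pass the low-count filter through the group where it is high, so nothing is read from these calls. The part of the marker genes in the results was not tested. The itraconazole library HT55 replicate 3 stood apart from the other 3 of its group, with 17967 genes detected against 16842 to 17222 and a scaling factor of 0.970 against 0.868 to 0.906. No sequencing batch is given in the labels, so nothing could be recomputed within batches. In bulk RNA, fewer cells that express a gene and less of its RNA per cell cannot be told apart.

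The start of the tubulin coding sequence is shown first, because a factor on the ribosome, TTC5, reads the first amino acids of a new tubulin chain and marks its mRNA for decay when free tubulin is plentiful. Capitals mark the first 4 codons, which carry that signal, in the first 30 coding bases of each tubulin of the list, 5′ to 3′ on the coding strand of GRCh37 (hg19).
TUBA1A: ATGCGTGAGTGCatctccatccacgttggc
TUBA4A: ATGCGTGAATGCatctcagtccacgtgggg
TUBB2A: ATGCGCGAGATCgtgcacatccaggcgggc
TUBB2B: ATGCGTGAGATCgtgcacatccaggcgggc
TUBB3: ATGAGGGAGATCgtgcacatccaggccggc
TUBB4B: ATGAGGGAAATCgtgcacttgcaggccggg
TUBB6: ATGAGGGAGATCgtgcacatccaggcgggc
Both alpha tubulins ended these 4 codons with TGC and all 5 beta tubulins with ATC. The start codons lay at 49582762 on chromosome 12 for TUBA1A, 220118580 on chromosome 2 for TUBA4A, 3157697 and 3227777 on chromosome 6 for TUBB2A and TUBB2B, 89989810 on chromosome 16 for TUBB3, 140135813 on chromosome 9 for TUBB4B and 12308292 on chromosome 18 for TUBB6. The regulators have no such start. STMN1, the tubulin-sequestering protein, begins with the following bases, shown for contrast with the first 4 codons again in capitals.
STMN1: ATGGCTTCTTCTgatatccaggtgaaagaa
TPPP: ATGGCTGACAAGgccaagcctgccaaagct
MAP1B: ATGGCGACCGTGgtggtggaagccaccgag

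TUBB2A and TUBB2B, neighbours on chromosome 6, carry the second point that sequence makes here. Reads were 50 bases long, and a read that aligns to more than 1 place was not counted in any gene. The first 60 coding bases of this pair are shown with the 1 differing base in capitals.
TUBB2A: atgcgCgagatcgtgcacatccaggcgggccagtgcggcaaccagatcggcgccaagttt
TUBB2B: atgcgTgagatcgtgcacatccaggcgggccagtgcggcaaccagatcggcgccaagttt
Over the whole coding sequence 24 of 1335 bases differed between these paralogs, and 933 of 1286 aligned windows of 50 bases were identical (72.6%). A read from such a window cannot be assigned. By exact match to the genome, 14.4% of the 50-base windows in the coding exons of TUBB2A and 11.3% of those of TUBB2B occurred once, and 31.3% and 41.5% of those in their canonical transcripts did, so most of the reads that tell this pair apart lie outside the coding sequence. TUBA1A was also poorly covered by unique windows, at 49.3% of its transcript. TUBA4A reached 94.0%, TUBB4B 87.6%, TUBB6 98.8%, TPPP 98.5%, and STMN1 and MAP1B 100%.

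For TUBB3 the limit was of another kind. Its transcript is largely unique (89.9% of windows), but 92.85% of its bases lie inside exons of other genes in the count files. The genes with exons in its span are a read-through gene, ENSG00000198211, and ENSG00000259006. A read inside TUBB3 and another counted gene is set apart as ambiguous. The TUBB3 counts were 3, 6, 2 and 1 in the 4 HT55 DMSO libraries and 1, 1, 1 and 3 in the 4 with itraconazole. In SW948 they were 1, 2, 2 and 3 with DMSO and 3, 0, 4 and 5 with itraconazole, and the 0 allows up to 0.387 CPM (3 counts). These counts overlapped in all comparisons, and they cannot be read as absence of TUBB3 mRNA. The 3 counts of that floor, like every spread given here, leave out that reads without molecular identifiers are not independent molecules.

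**Figure D1:**
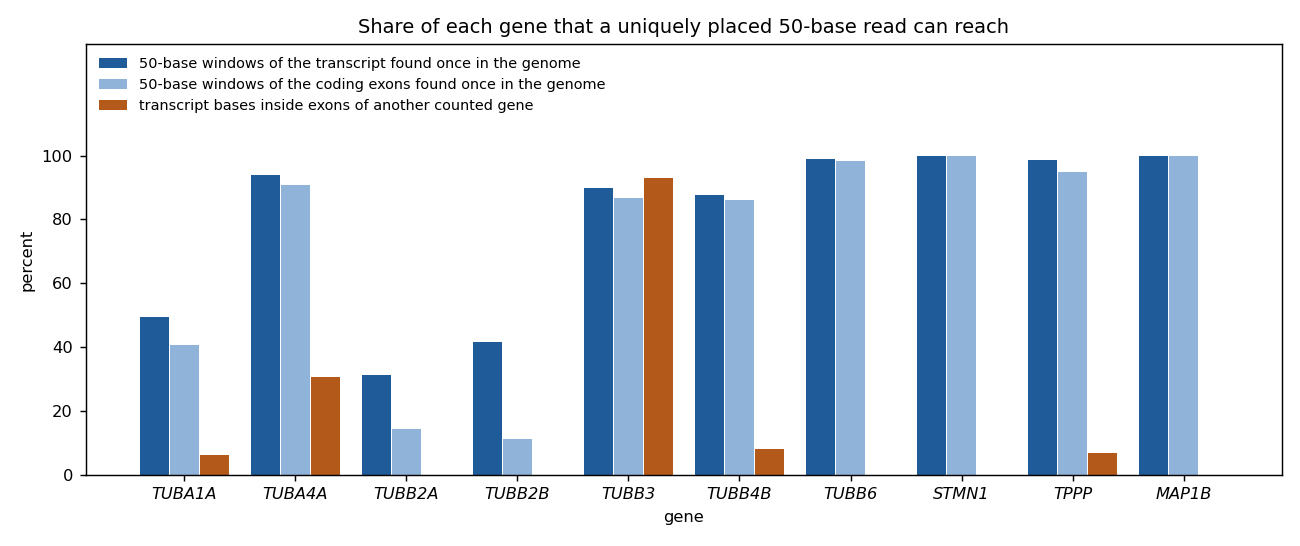
Bars give, for each of the 10 genes, the percent of 50-base windows found once in GRCh37 in the canonical transcript (dark blue) and in the coding exons (light blue), and the percent of transcript bases inside exons of another counted gene (orange). TUBB2A and TUBB2B have the shortest coding bars, at 14.4% and 11.3%, and TUBB3 is the gene whose transcript is mostly shared with other counted genes, at 92.85%.

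Across the 4 groups 3 patterns covered some of the members. The abundant TUBB4B and STMN1 were lower with itraconazole in both lines, with treated means of 0.676 (HT55) and 0.709 (SW948) times the control for TUBB4B and 0.620 and 0.621 times for STMN1. TPPP and TUBB2B were lower with the drug in HT55 and higher in SW948. MAP1B and TUBA1A were lower with the drug in HT55 and scarce in SW948 with or without it. The other members were outside these patterns. TUBA4A was lower with the drug in HT55, and its libraries overlapped in SW948. TUBB2A had higher means with the drug in both lines, with libraries that overlapped in HT55. For TUBB6 and TUBB3 the treated and control libraries overlapped in both lines. The edgeR quasi-likelihood test, with an adjusted p under 0.05 over all genes tested, called 54.0% of 12133 genes changed by the drug in HT55 and 80.2% of 12505 genes in SW948. Of the members, 8 of the 8 that passed the low-count filter in HT55 were past that threshold (1 higher, 7 lower) and 6 of the 7 that passed it in SW948 (4 higher, 2 lower). Between the untreated lines, where 84.2% of 12820 genes were called, 9 of 9 were past it. For the difference between the responses of the lines, where 53.9% of 13249 genes were called, 4 of 9 were. Nothing is read from these counts, since the members were chosen with these contrasts known and a gene could pass the filter through its high group. TUBB3 passed the filter in no comparison, TUBB6 not in HT55, and TUBA1A and MAP1B not in SW948.

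**Figure D2:**
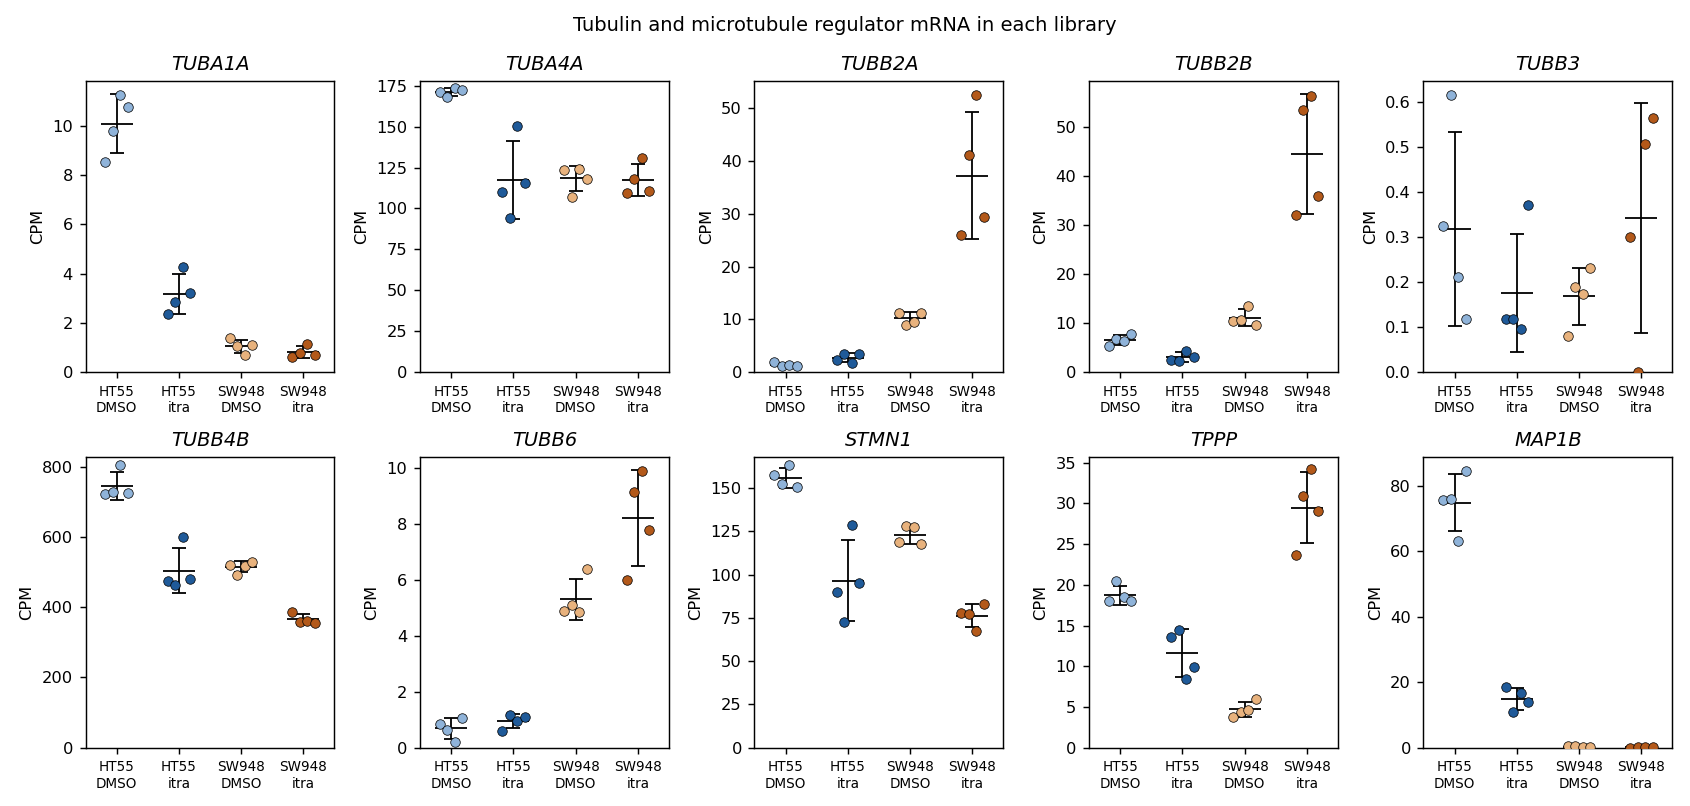
Each panel plots the CPM of 1 gene in the 16 libraries (points, 4 per group, labelled by line and by DMSO or itraconazole) with the group mean and SD (black) on a linear axis from 0. TPPP and TUBB2B are lower in HT55 and higher in SW948 with itraconazole, and MAP1B is near 0 in all 8 SW948 libraries.

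TUBB4B is a broadly expressed beta tubulin of dividing and ciliated cells and was the most abundant member per length in all 4 groups. It lies on the plus strand at chr9:140135739-140138159. In HT55 it was counted at 721, 728, 805 and 724 CPM with DMSO and at 474, 463, 598 and 479 CPM with itraconazole. In SW948 the libraries held 521, 492, 518 and 528 CPM with DMSO and 387, 359, 361 and 354 CPM with the drug. In both lines all 4 treated libraries lay below all 4 controls. On the log2 scale the drug response was -0.57 ± 0.09 (SE) in HT55 cells and -0.53 ± 0.06 in SW948 cells, and in the fit to all 16 libraries these responses differed by 0.07 ± 0.11. Untreated SW948 held less than untreated HT55 (log2 difference -0.53 ± 0.04), with no overlap between the libraries.

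TUBA4A, an alpha tubulin common in platelets and muscle, lies at chr2:220114432-220142624 on the minus strand, and 30.65% of its transcript bases lie in exons of other counted genes. The HT55 libraries held 171, 168, 174 and 172 CPM with DMSO and 110.1, 94, 150.3 and 115 CPM with itraconazole. The SW948 libraries held 124, 107, 124 and 118 CPM and 109, 118, 131 and 111 CPM. The groups were apart in HT55 and overlapped in SW948. The log2 fold change was -0.55 ± 0.12 in HT55 and -0.05 ± 0.07 in SW948, a difference between responses of 0.53 ± 0.14. With the drug the means of both lines were close, at 117 ± 23.7 CPM (SD, n = 4) in HT55 and 117 ± 9.76 in SW948, and their libraries overlapped.

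TUBA1A, a major alpha tubulin of developing neurons, was a minor isotype here. It lies at chr12:49578469-49582863 on the minus strand. HT55 held 8.55, 9.77, 11.2 and 10.8 CPM with DMSO and 2.37, 2.83, 4.28 and 3.23 CPM with itraconazole, with no overlap. SW948 held 1.36, 1.04, 0.694 and 1.08 CPM with DMSO and 0.6, 0.773, 1.14 and 0.677 CPM with the drug, from 6 to 17 counts a library, and those groups overlapped. Its response in HT55 was -1.65 ± 0.19 on the log2 scale. Untreated SW948 was lower than untreated HT55 by -3.24 ± 0.19 on the log2 scale, and by -3.40 to -3.09 with 1 library left out. A fold change in SW948 is not given, because the gene did not pass the filter there, while the 16-library fit put the difference between responses at 1.23 ± 0.39.

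TUBB2A and TUBB2B are beta tubulins that are abundant in brain, at chr6:3153731-3157778 and chr6:3223558-3231964, both on the minus strand. TUBB2A was counted in HT55 at 1.95, 1.23, 1.27 and 1.19 CPM with DMSO and 2.37, 3.42, 1.71 and 3.35 CPM with itraconazole, which rest on 10 to 29 counts a library and overlapped. In SW948 it was counted at 11.2, 8.88, 9.45 and 11.2 CPM with DMSO and 25.9, 41.1, 52.6 and 29.5 CPM with the drug. All 4 treated SW948 libraries were above all 4 controls. TUBB2B in HT55 went the other way, from 5.41, 6.79, 6.25 and 7.82 CPM to 2.37, 2.24, 4.37 and 3.1 CPM, with no overlap. In SW948 TUBB2B was higher with the drug, like its neighbour, going from 10.5, 10.6, 13.5 and 9.55 CPM to 32, 53.5, 56.2 and 35.8 CPM, again with no overlap. The log2 fold changes were 0.92 ± 0.29 and 1.82 ± 0.20 for TUBB2A in HT55 and SW948, and -1.10 ± 0.23 and 1.97 ± 0.18 for TUBB2B. The difference between the responses of the lines was 3.09 ± 0.31 for TUBB2B and 0.95 ± 0.41 for TUBB2A.

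The balance within this pair does not depend on how libraries are scaled. TUBB2A made up 26.5%, 15.4%, 16.9% and 13.2% of the counts of both genes in the HT55 DMSO libraries and 50.000%, 60.4%, 28.1% and 51.9% with itraconazole. In SW948 the share was 51.7%, 45.6%, 41.1% and 53.9% with DMSO and 44.7%, 43.5%, 48.4% and 45.2% with the drug. The groups did not overlap in HT55 and did in SW948. In SW948 the treated libraries with most TUBB2A, replicates 2 and 3, were also those with most TUBB2B, at 53.5 and 56.2 CPM, and the fewest genes detected, at 16901 and 16859 against 17708 and 17207 in the other two. The part of that in the levels was not tested.

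TUBB6, a beta tubulin of many non-neural cells, lies at chr18:12307668-12344319. It was near the limit of detection in HT55, with 2 to 10 counts a library, at 0.865, 0.617, 0.212 and 1.07 CPM with DMSO and 0.593, 1.18, 0.951 and 1.12 CPM with itraconazole. SW948 held 4.89, 5.1, 4.86 and 6.39 CPM with DMSO and 6, 9.15, 9.92 and 7.79 CPM with the drug. The treated and control libraries overlapped in both lines, and every SW948 library was above every HT55 library. The log2 fold change in SW948 was 0.58 ± 0.17, and untreated SW948 was above untreated HT55 by 2.96 ± 0.26 on the log2 scale. With 1 library left out the difference between the untreated lines ran from 2.65 to 3.21.

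STMN1, or stathmin, is a tubulin-sequestering protein that is switched off by phosphorylation in mitosis and is common in dividing cells. It lies at chr1:26210672-26233482 on the minus strand. In HT55 the libraries held 157, 152, 163 and 151 CPM with DMSO and 90.1, 72.7, 129 and 95.1 CPM with itraconazole. In SW948 they held 119, 128, 128 and 118 CPM and 77.9, 77.2, 67.4 and 82.9 CPM. Treated libraries were below the controls in both lines. STMN1 responded with a log2 fold change of -0.69 ± 0.14 in HT55 against -0.72 ± 0.07 in SW948, a difference of 0.00 ± 0.17. Treated libraries of the lines overlapped, whereas untreated SW948 was below untreated HT55 by -0.34 ± 0.04 on the log2 scale.

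Cell cycle genes moved beside STMN1 in HT55 but not as a group in SW948. Of 20 cell cycle markers, 15 fell and 0 rose in HT55 by the edgeR test (75% called, against 54.0% of all genes called and 26.5% lower), while 10 rose and 10 fell in SW948 (100% called, against 80.2%). Their summed level was 4425 to 4664 CPM in HT55 with DMSO and 3273 to 3701 CPM with itraconazole. In SW948 it was 2348 to 2428 and 2385 to 2774 CPM. No marker had a mean of 0 in any group. In SW948 the replication helicase genes MCM2 to MCM7 had lower means with the drug and the mitotic genes AURKA, BUB1 and TPX2 higher ones. Their part in the STMN1 level was not tested.

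TPPP, a protein that bundles microtubules and is best known from oligodendrocytes, lies at chr5:659977-693467 on the minus strand, and 6.76% of its exon bases lie in exons of CEP72. The HT55 libraries held 18, 20.5, 18.4 and 18 CPM with DMSO and 13.7, 14.5, 8.46 and 9.93 CPM with itraconazole. The SW948 libraries held 3.77, 4.35, 4.68 and 6 CPM with DMSO and 23.7, 30.9, 34.2 and 29 CPM with the drug. The groups were apart in both lines, lower with the drug in HT55 and higher in SW948. Its log2 fold change was -0.70 ± 0.16 in HT55 and 2.60 ± 0.15 in SW948, which differ by 3.33 ± 0.23 in the 16-library fit. The order of the lines turned with treatment: untreated SW948 held less than untreated HT55 (-1.98 ± 0.12), and treated SW948 held more than treated HT55, with no overlap either time.

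The other TPPP family genes allow a comparison within the family. TPPP3, which lacks the N-terminal extension of TPPP, rose in both lines, from 19.7 ± 0.602 to 47.4 ± 6.44 CPM in HT55 (log2 1.26 ± 0.10, edgeR adjusted p = 1.13e-05) and from 1.62 ± 0.354 to 9.13 ± 1.81 CPM in SW948 (2.46 ± 0.20, adjusted p = 7.08e-08). TPPP2, a testis gene, had 1 count in all 16 libraries. TPPP made up 47.2%, 50.4%, 49.4% and 48% of the counts of TPPP and TPPP3 in the HT55 DMSO libraries and 23.2%, 21.6%, 17.7% and 15.9% with itraconazole. In SW948 it made up 67.1%, 76.7%, 70.1% and 82.1% and 69.5%, 77.4%, 83.8% and 73.4%. The share was lower with the drug in all 4 HT55 libraries and overlapped in SW948.

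Of 13248 other genes in the 16-library fit, the 5 whose log2 CPM was most like that of TPPP over the 16 libraries were BTG2 (Pearson r = 0.984), IMPDH2 (0.971), CTNNB1 (0.969), EIF2S2 (0.969) and C16orf87 (0.963). The libraries fall into 4 groups, so these values describe a shared order of group means. BTG2, an antiproliferative factor, had means of 43.8 and 34.0 CPM in HT55 with DMSO and itraconazole and 23.4 and 53.1 CPM in SW948. CTNNB1, which encodes beta-catenin, had means of 551 and 494 CPM in HT55 and 362 and 600.2 CPM in SW948.

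MAP1B, a protein that binds along microtubules in growing axons, was the member that differed most between the lines. It lies at chr5:71403061-71505392 on the plus strand. HT55 held 75.6, 76.2, 63.3 and 84.7 CPM with DMSO and 18.5, 10.8, 16.6 and 13.9 CPM with itraconazole, with no overlap and a log2 fold change of -2.32 ± 0.15. SW948 had 5, 7, 1 and 4 counts with DMSO and 0, 2, 1 and 1 counts with the drug, where the 0 allows up to 0.300 CPM (3 counts). Untreated SW948 was below untreated HT55 by -7.66 ± 0.17 on the log2 scale. With 1 library left out that difference ran from -8.04 to -7.35. At 1 to 7 counts in each SW948 DMSO library, this SE is likely too small. At this depth no drug response of MAP1B could be measured in SW948, and the difference between the responses was 0.80 ± 1.13. Few neural markers could be set beside MAP1B. Of the 12, 3 passed the filter in HT55, of which 1 rose and 0 fell (33.3% called, against 54.0% of all genes). The summed level of the 12 was 144 to 167 CPM with DMSO and 179 to 219 CPM with itraconazole. Most of that sum was MBP and REST, so it does not speak for the other neural markers. In SW948 the sum was 169 to 181 and 193 to 208 CPM. There 5 passed the filter, 2 rose and 1 fell (60% called, against 80.2%).

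Leaving out the HT55 itraconazole replicate 3 moved most HT55 values away from 0. The log2 fold change without it was -1.83 for TUBA1A, -0.68 for TUBA4A, -1.34 for TUBB2B, -0.65 for TUBB4B and -0.85 for STMN1. It was -2.37 for MAP1B and 1.11 for TUBB2A, and it was nearer 0 for TPPP, at -0.55. No direction turned.

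**Figure D3:**
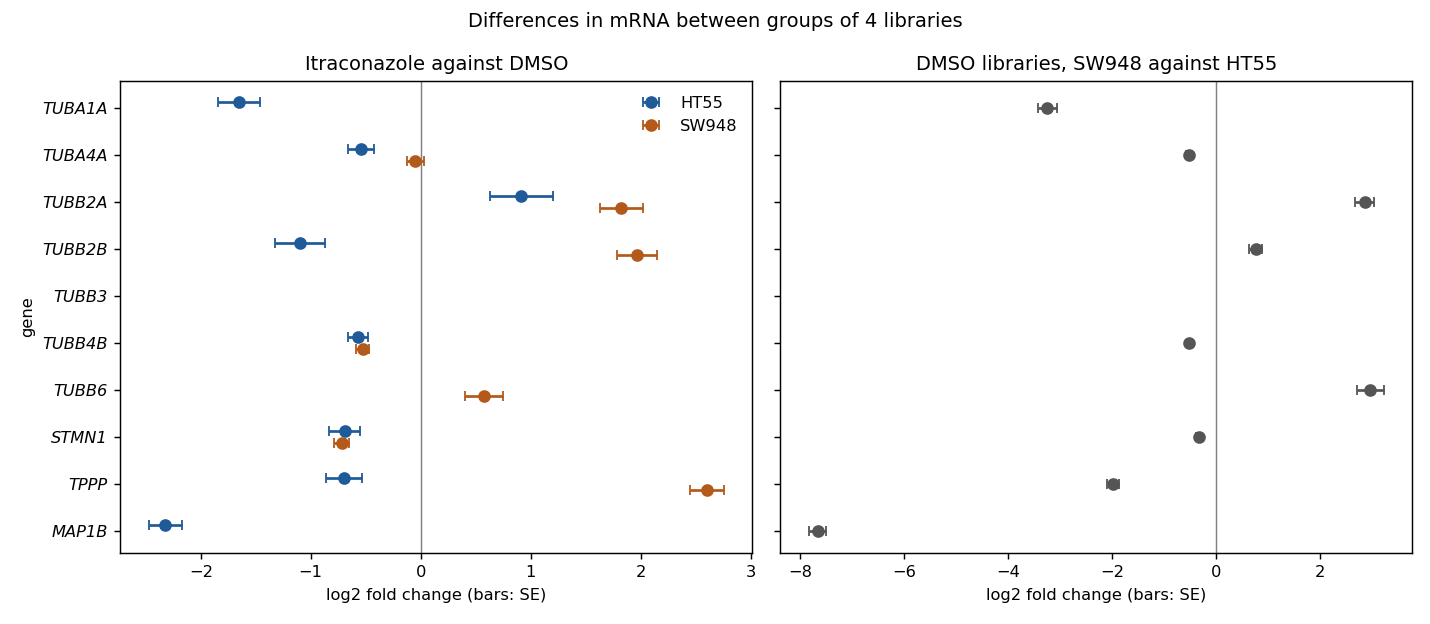
Points give the log2 fold change and bars its SE for each gene that passed the low-count filter, on the left for itraconazole against DMSO in HT55 (blue) and SW948 (orange) and on the right for untreated SW948 against untreated HT55. The lines lie on opposite sides of 0 for TUBB2B and TPPP and side by side for TUBB4B and STMN1, and TUBB3 has no point.

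Per kilobase of canonical transcript, the order of the members in untreated HT55 was TUBB4B at 476 ± 26.1 CPM per kilobase (SD, n = 4), STMN1 at 108 ± 3.92, TUBA4A at 83.6 ± 1.19, MAP1B at 6.36 ± 0.748 and TUBA1A at 6.03 ± 0.715. Below these came TUBB2B at 3.42 ± 0.525, TPPP at 3.13 ± 0.198, TUBB2A at 0.872 ± 0.223, TUBB6 at 0.367 ± 0.196 and TUBB3 at 0.186 ± 0.127. MAP1B and TUBA1A did not differ beyond their spread, nor did TUBB2B and TPPP, or TUBB6 and TUBB3. In untreated SW948 the first 3 places were the same, at 329 ± 10.02, 85.2 ± 3.79 and 57.7 ± 3.86, followed by TUBB2A at 6.3 ± 0.737 and TUBB2B at 5.74 ± 0.898, which overlapped. The lowest there were TUBB3 and MAP1B, at 0.0987 ± 0.0373 and 0.0309 ± 0.0202. In SW948 with the drug TUBB2A and TUBB2B reached 23.1 ± 7.5 and 23.1 ± 6.36, and TPPP 4.93 ± 0.734. Isotypes with few unique windows are understated on this scale. TUBB3 may be too, because 92.85% of its transcript bases lie in exons of other counted genes, so its place in these orders is uncertain.

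The members were set against their whole families by each isotype's share of the reads per kilobase of merged exon. Among the alpha tubulins, TUBA4A held 19.1% ± 0.434 (SD, n = 4) in HT55 with DMSO, 18.4% ± 2.5 with itraconazole, 19.4% ± 1.02 in SW948 with DMSO and 21.6% ± 1.5 with itraconazole. TUBA1A held at most 1.16% in a library. The rest was nearly all TUBA1B and TUBA1C, the common isotypes of dividing cells. TUBA1B went from 58% ± 0.273 to 50.8% ± 1.32 in HT55 and from 46.8% ± 0.745 to 33.8% ± 1.91 in SW948, and TUBA1C from 21% ± 0.51 to 28.6% ± 3.83 and from 33.1% ± 0.991 to 44% ± 1.34. Among the beta tubulins, TUBB4B held 78.3% ± 0.847 and 79.2% ± 2.01 in HT55 and 67% ± 0.47 and 59.2% ± 5.37 in SW948, with TUBB next, at 21.2% ± 0.802, 20.1% ± 2.08, 30.9% ± 0.481 and 32.4% ± 3.62 in the same order. TUBB2A and TUBB2B together with TUBB6 filled most of the remainder in treated SW948, where TUBB2A held 4.17% ± 1.07 and TUBB2B 3.48% ± 0.754.

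These shares depend on the length they are divided by. Per unique 50-base position of the canonical transcript, a rule added after the data had been seen, TUBA4A held 7.94% of the alpha tubulin reads in untreated HT55 in place of 19.1%, and in treated SW948 TUBB2A held 12.1% and TUBB2B 9.01% of the beta tubulin reads. Under all 4 length rules TUBA1B had a lower and TUBA1C a higher mean share with the drug in both lines. TUBA1B is itself uncertain, since 72.65% of its transcript bases lie in exons of the counted gene TUBA1B-AS1 and 34.9% of its windows are unique. The summed CPM of all beta tubulins was 1118 to 1230 with DMSO and 675 to 959.9 with itraconazole in HT55, and 975 to 1034 and 772 to 968 in SW948. That of the alpha tubulins was 887 to 954 and 631 to 714 in HT55, and 605 to 676 and 553 to 603 in SW948. In both lines and both families the treated libraries lay below the controls.

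**Figure D4:**
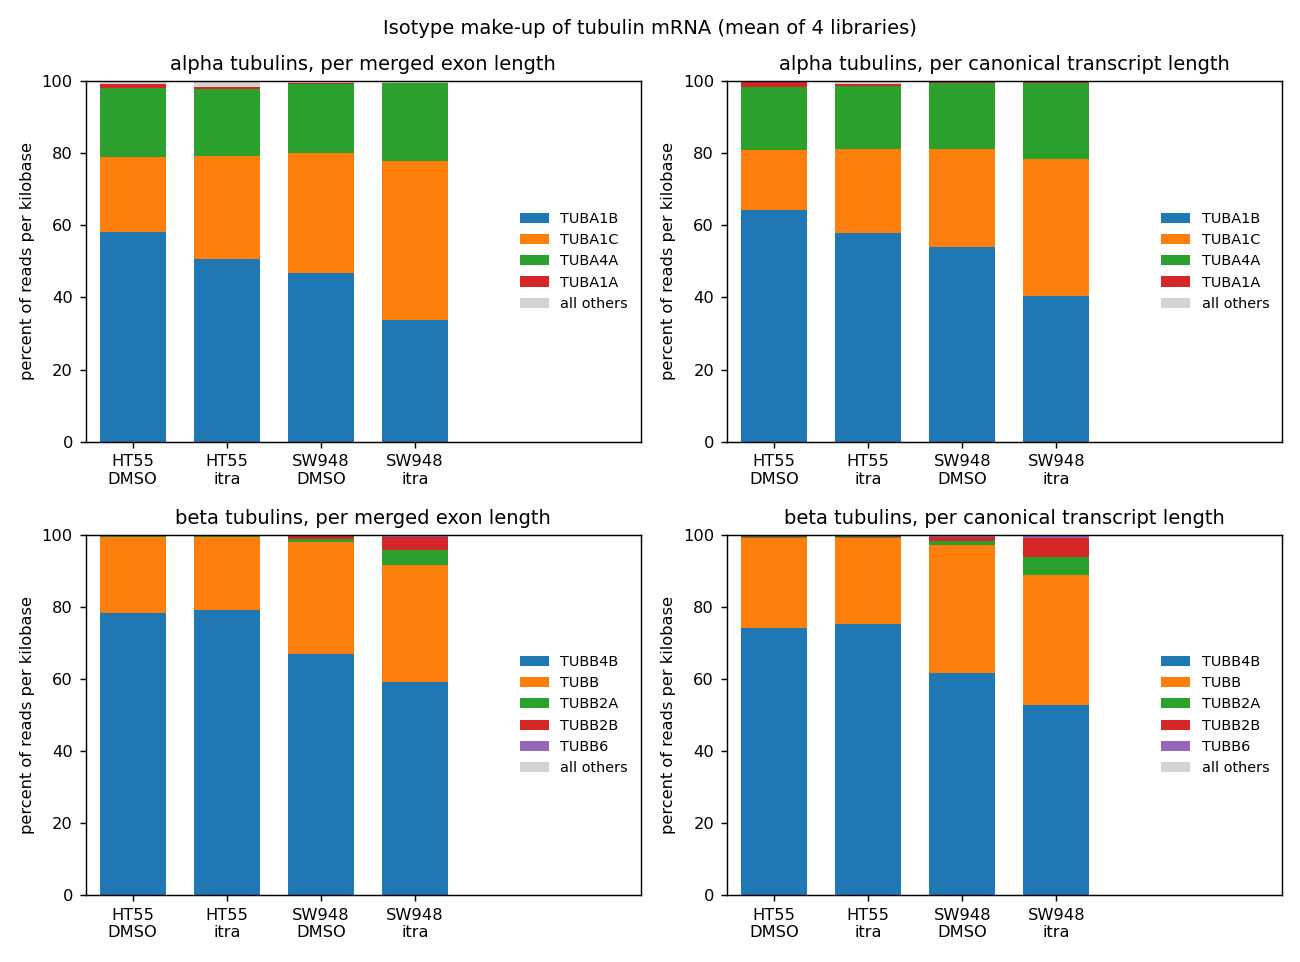
Stacked bars give the mean percent that each isotype holds of the alpha (top) or beta (bottom) tubulin reads per kilobase in the 4 groups, per merged exon length (left) and per canonical transcript length (right). With itraconazole the share of TUBA1B is lower and that of TUBA1C higher in both lines, although the CPM of TUBA1C did not rise in HT55. The bands of TUBB2A and TUBB2B are widest in treated SW948.

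The rest of the microtubule system was taken from 11 lists of tubulin and microtubule genes, 128 genes in the count files with the members included. In HT55, 55 of the 96 tested were past the threshold (57.3%, against 54.0% of all genes), 21 higher and 34 lower, with a median log2 fold change of -0.06 against -0.02 over all genes. On plain library totals, which moved the median of all genes to -0.18, 17 were higher and 49 lower. In SW948, 81 of 99 were past it (81.8%, against 80.2%), 48 higher and 33 lower, with a median of 0.21 against -0.02. On plain totals, with a median of all genes of -0.35, that split was 32 and 46. Untreated lines differed in 91 of 101 (90.1%, against 84.2%), and the responses of the lines in 59 of 103 (57.3%, against 53.9%). Without the members, whose responses were known when they were chosen, the counts were 47 of 88 in HT55 (53.4%, 20 higher and 27 lower, median -0.05), 75 of 92 in SW948 (81.5%, 44 higher and 31 lower, median 0.21), 82 of 92 between the untreated lines (89.1%) and 55 of 94 for the responses (58.5%). With the members, the splits were 42 higher and 49 lower in SW948 between the untreated lines, and 39 and 20 for the responses. On plain totals they were 48 and 40, and 32 and 30.

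The other alpha and beta tubulins differed among themselves. TUBA1B fell in both lines, from 502 ± 16.7 to 311 ± 30.5 CPM in HT55 (log2 -0.70 ± 0.08, edgeR adjusted p = 5.69e-05) and from 277 ± 13.6 to 177 ± 14.7 CPM in SW948 (-0.68 ± 0.07, adjusted p = 7.5e-07). TUBB, the common beta tubulin of dividing cells, fell by 0.64 ± 0.15 on the log2 scale in HT55 (adjusted p = 0.00411) and by 0.27 ± 0.10 in SW948 (adjusted p = 0.0243). Its treated and control libraries were apart in HT55 and overlapped in SW948, where the means were 475 CPM with DMSO and 403 CPM with itraconazole. TUBA1C was at -0.07 ± 0.07 in HT55 (adjusted p = 0.407) and rose in SW948 (0.20 ± 0.07, adjusted p = 0.0104), a direction that flipped to -0.13 on plain totals. TUBAL3, a scarce gut isotype, rose in HT55 from 3.33 to 5.41 CPM (0.70 ± 0.18, adjusted p = 0.00722).

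In the decay pathway that reads the capitals above, TTC5 and CNOT11 were lower with the drug in both lines. TTC5, the factor that recognises the new tubulin chain, went from 9.21 to 5.19 CPM in HT55 (log2 -0.82 ± 0.18, adjusted p = 0.00316) and from 14.1 to 1.74 CPM in SW948 (-3.02 ± 0.16, adjusted p = 1.07e-09). Its partners differed from each other. CNOT11, a subunit of the deadenylase that is recruited, fell by 0.25 on the log2 scale in HT55 and by 0.36 in SW948. SCAPER, the adaptor between them, was at -0.20 ± 0.08 in HT55 (adjusted p = 0.0526) and rose in SW948 (0.54 ± 0.09, adjusted p = 4.66e-05).

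HT55 had 3 higher and 8 lower of 19 tubulin folding genes (57.9% called, against 54.0% of all genes). SW948 had 9 higher and 4 lower (68.4%, against 80.2%). Over all genes tested, 27.5% were higher and 26.5% lower in HT55, and 38.9% and 41.3% in SW948. No list was tested as a set. CCT4, a subunit of the chaperonin that folds tubulin, rose from 224 to 615 CPM in SW948 (1.42 ± 0.07, adjusted p = 3.5e-10). The dimer-assembly cofactor TBCD fell there from 30.1 to 5.85 CPM (-2.39 ± 0.10, adjusted p = 1.78e-10). In HT55 the prefoldin subunit PFDN4 rose by 0.58 ± 0.13 and TBCEL, a relative of the cofactor TBCE, fell by 0.98 on the log2 scale. Of 12 nucleation genes 1 rose and 3 fell in HT55 (33.3% called). There TUBGCP4 of the gamma-tubulin ring was at 0.54 ± 0.10 and epsilon tubulin TUBE1 at -0.60 ± 0.11. In SW948 5 rose and 4 fell (75% called), with MZT1, a small subunit of that ring, at 1.10 ± 0.07 and TUBE1 at -0.72 ± 0.13.

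Tubulin-modifying enzymes were split, with 3 higher and 3 lower of 13 in HT55 and 6 higher and 5 lower of 15 in SW948. That was 46.2% and 73.3% called, against 54.0% and 80.2% of all genes. The polyglutamylase TTLL11 fell in both, from 9.12 to 5.01 CPM in HT55 (-0.85 ± 0.18) and from 6.39 to 0.331 CPM in SW948 (-4.19 ± 0.27). The glycylase TTLL3 rose in SW948 from 2.08 to 6.88 CPM (1.72 ± 0.27), and the deacetylase SIRT2 rose in HT55 (0.50 ± 0.07). The one other stathmin gene past the filter, STMN3, was measured in SW948 alone and fell from 15.4 to 10.02 CPM (-0.67 ± 0.16, adjusted p = 0.00182). STMN2 and STMN4 had 0 or 1 count in each group.

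Apart from MAP1B, 5 structural microtubule-associated genes rose and 1 fell of 13 tested in HT55, and 8 rose and 3 fell of 12 in SW948. That was 46.2% and 91.7% called, against 54.0% and 80.2% of all genes. MAP7D1, a kinesin-1 cofactor, was at 0.67 ± 0.07 in HT55, and EML2 rose in SW948 from 63.2 to 218 CPM (1.75 ± 0.06) while EML3 fell (-0.86 ± 0.12). Among the proteins that track growing plus ends, 6 rose and 2 fell of 12 in HT55, and 9 rose and 4 fell of 14 in SW948. The shares called were 66.7% and 92.9%. MAPRE2, which encodes EB2, rose in HT55 from 5.47 to 23.6 CPM (2.09 ± 0.28, adjusted p = 0.00017), and CLIP2 in SW948 from 91.5 to 411 CPM (2.14 ± 0.12, adjusted p = 2.39e-09). TACC3 of the spindle fell in HT55 (-0.49 ± 0.08) and rose in SW948 from 40.6 to 69.5 CPM (0.74 ± 0.07), and SLAIN1 fell in SW948 (-1.78 ± 0.21). Severing and depolymerising genes had 0 higher and 6 lower of 11 in HT55 and 4 higher and 6 lower of 11 in SW948. Here 54.5% and 90.9% were called. The mitotic kinesin KIF18A fell in HT55 (-0.80 ± 0.10), and in SW948 KIF2C rose (0.96 ± 0.09) and KIF24 fell (-2.43 ± 0.20).

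**Figure D5:**
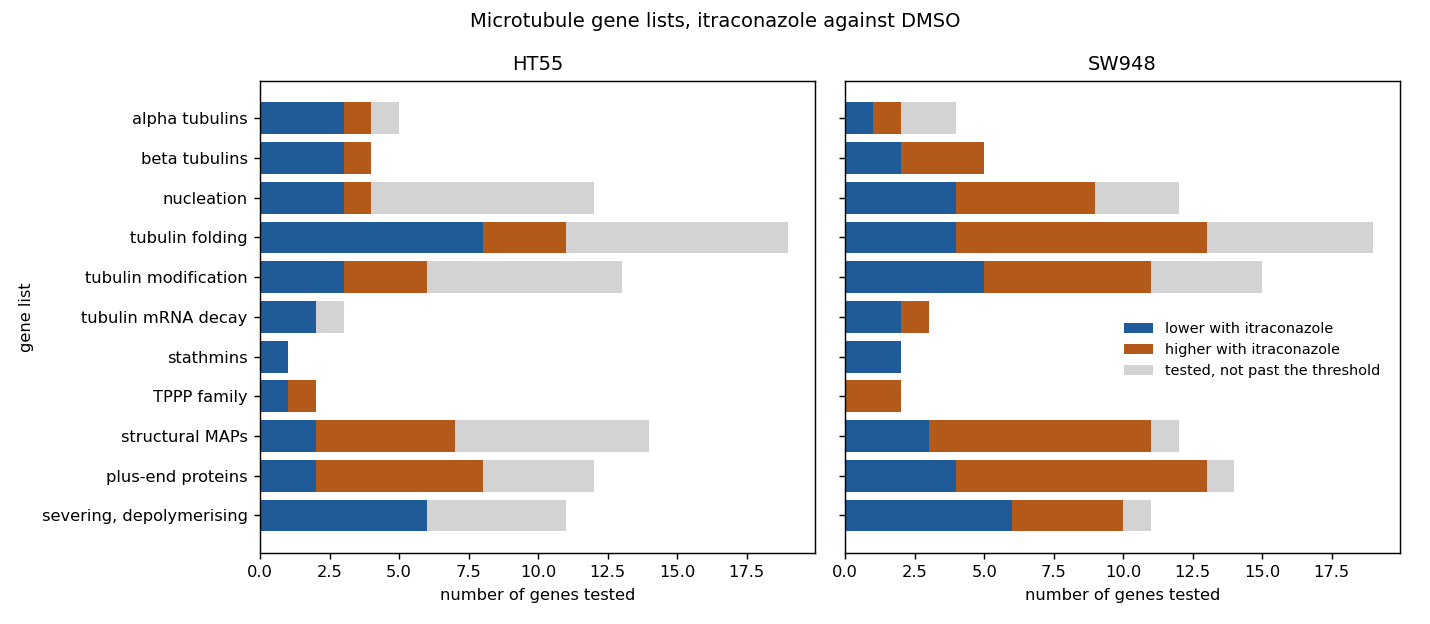
Stacked bars count, for each gene list, the genes with an edgeR adjusted p under 0.05 that were lower (blue) or higher (orange) with itraconazole and those tested and not past the threshold (grey), in HT55 (left) and SW948 (right). Members are included. Tubulin folding has 8 lower and 3 higher genes in HT55 and 4 lower and 9 higher in SW948. Over all genes tested, 54.0% in HT55 and 80.2% in SW948 were past the threshold.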

How the data were processed

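The authors deposited raw counts per Ensembl gene for each of the 16 libraries. Single-end reads of 50 bases were aligned to hg19. The submitters' processing notes name TopHat, HTSeq and DESeq without versions. Each count file ends with totals in the form of htseq-count, where reads with several alignments or in several genes are set apart. Of all entries, 22.0% to 27.9% were not unique. With the not-unique entries left out, 1.68% to 1.90% of the rest were ambiguous. The strand setting is not given in the sources used here. Those rows were left out.

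Symbols (47098 of 54127 genes), loci and sequences came from GENCODE on GRCh37, and 3 of 131 listed microtubule genes (TUBB8, TUBGCP5 and TBCE) had no match. Windows of 50 bases within exons were matched exactly to the genome on both strands, leaving out windows across splice junctions. The authors' annotation release may differ.

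Counts were tested in R 4.3.3 with edgeR 4.0.16 and its quasi-likelihood test (TMM, filterByExpr, Benjamini-Hochberg adjusted p under 0.05, two-sided) within each line, between the untreated lines, and for the interaction on 16 libraries. The script was tested on simulated data. CPM used the scaling factors of all 16 libraries, while fold changes came from each fit. The SE of a log2 fold change is its absolute value divided by the square root of the F value of its test. It can be too small for genes with few counts. The members and lists were chosen with earlier results of these data known. Outside the members, a gene was named if it changed most in its list and line with a mean of at least 5 CPM, or held at least 5% of its tubulin family. Alternatives were DESeq2 size factors, plain totals, the DESeq2 1.42.0 test, an adjusted p under 0.01, other low-count filters (none, or a minimum of 10 counts per library), a replicate block, 1 fit on all libraries, leaving out each library, and other lengths for the shares.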

Additional observations from a re-analysis of the deposited data

Results flagged for a closer look

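In 9 of the 152 sets of 4 libraries for the 38 named genes, 1 library stood off from the other 3. The gap there was past the 95% limit of Dixon's test, which chance passes in about 1 of 20 groups. The 152 include sets with fewer than 10 counts in every library, which were not tested. The share among tested sets was therefore higher. In the itraconazole libraries of HT55, replicate 3 was the highest for TUBB4B, at 598 CPM against 463 to 479 (gap 0.88 of the range), and for TUBA1B, at 357 CPM against 294 to 297 (0.959). Among members with DMSO, TUBB4B was highest in HT55 replicate 3 (0.919), TUBB2A in HT55 replicate 1 (0.885) and TUBB6 in SW948 replicate 4 (0.839). The others were MAP7D1 in treated HT55 replicate 4 (0.865), MAPRE2 in treated SW948 replicate 3 (0.943), and MZT1 in replicate 2 (0.973) and CLIP2 in replicate 3 (0.833) of SW948 with DMSO.

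By the edgeR interaction test on 16 libraries, the responses of the lines differed for 20 of the 38 named genes (52.6%, against 53.9% of all genes). Nothing is read from that count, since the members were chosen with these responses known and most of the others for a large change in 1 line. As the log2 response in SW948 minus that in HT55, the members among them stood at 3.33 for TPPP, 3.09 for TUBB2B, 1.23 for TUBA1A (6 to 17 counts a library in SW948, where it did not pass the low-count filter) and 0.527 for TUBA4A, given as a description. Outside the members it was 2.08 for the glycylase TTLL3, 1.26 for TACC3, 1.23 for TPPP3, 1.2 for EML2, 1.05 for KIF2C, 1.03 for MZT1, 0.924 for CCT4, 0.765 for SCAPER and 0.307 for TUBA1C. It was negative for TTLL11 (-3.31), TTC5 (-2.18), TBCD (-1.99), KIF24 (-1.78), EML3 (-1.03), TUBAL3 (-0.998) and MAPRE2 (-0.957).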

How the results depend on the processing

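The numbers of microtubule list genes past the threshold stayed within 1.5 times under the 30 alternative settings and 40 fits without 1 library, at 45 to 66 in HT55, 76 to 86 in SW948, 82 to 94 between the untreated lines and 51 to 64 for the interaction. Same-numbered libraries deviated from their group means with correlations from -0.02 to 0.12, over 0.1 in 2 of 8 pairs. Those 2 were replicate 3 of HT55 (0.116) and of SW948 (0.104), against means of -0.045 and -0.041 with other numbers. For them and for SW948 replicate 4 (0.059) the same number was the best match. As most correlations were near 0, the numbers were not taken as pairs. The fit with a replicate block gave 53, 80, 93 and 60. In HT55 the members kept their directions in every fit, and so did those in SW948 and between the untreated lines. TUBB2A in HT55 (10 to 29 counts) lost its call without HT55_CONT replicate 2, 3 or 4 or HT55_ITRA replicate 2 or 4, at 0.78 to 0.88. Plain totals moved TUBB6 in SW948 to 0.24, no longer past the threshold, and TUBA4A there to -0.38, past it. The interaction values near 0 changed sign. On plain totals they were -0.20 for STMN1, -0.0735 for TUBB6 and -0.13 for TUBB4B, and -0.0068 for STMN1 without a low-count filter. Without 1 library STMN1 ran from -0.12 to 0.16 and TUBB6 from -0.15 to 0.43. The cause was not tested. The interaction call was lost for TUBA1A without SW948_ITRA replicate 3 (1.02) and for TUBA4A on plain totals (0.32). With an adjusted p under 0.01 as the threshold, a choice added after the data had been seen, the calls of TUBA1A in the interaction (1.23) and of TUBB2A in HT55 (0.92) were lost. At the threshold of 0.05, TUBB2A gained an interaction call under the DESeq2 test (0.96) and without a filter (0.94). It also did so without HT55_ITRA replicate 2 or SW948_ITRA replicate 1 or 4 (1.04 to 1.09). Of the isotype shares under other lengths, 46 of 60 moved by more than 1 SD. Depth limited TUBB3, TUBB6 in HT55, and TUBA1A and MAP1B in SW948.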
